A study of Mus musculus with 42 samples.

Results

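Genes for the proteins of the cytoplasmic ribosome were followed across 42 MC38 tumors in 5 treatment groups. Members were chosen by name, as protein-coding genes whose symbol begins with Rpl, Rps or Rplp and a digit, plus Rpsa, without pseudogenes and the Rps6k kinases. The annotation holds 86 such genes, and 85 of them are among the 26811 genes of the count table, with 48 of the large subunit, 3 of its stalk and 34 of the small subunit by symbol. Of these, 84 had enough counts to be tested. The rule is by name, so it also takes in Rps19bp1 and Rpl7l1, which are not counted as core ribosomal proteins, and leaves out genes such as Fau and Rack1, whose products are on the ribosome.

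MC38 is a mouse colon carcinoma line, and its cells were placed under the skin of female mice aged 8 to 12 weeks. All hosts were CC75×B6 mice, the F1 offspring of the Collaborative Cross strain CC075/UncJ and C57BL/6J. Blocking antibodies were injected at intervals of 3 days while tumors grew to between 75 and 110 mm3. Mice then received aPD1 or its isotype antibody once and were killed after 48 h. The groups were isotype control (n = 5), aPD1 at 200 µg (n = 6), aPD1 + aGMCSF with 100 µg of antibody to GM-CSF (n = 9), aPD1 + aIL2RB with 200 µg of antibody to the IL-2 receptor beta chain (n = 11) and aPD1 + aGMCSF + aIL2RB with all 3 antibodies (n = 11). Isotype antibodies matched to the blocking antibodies served as their controls. Each profile is bulk poly(A) RNA of 1 tumor from 1 mouse, all hosts were of a single F1 cross, and in bulk RNA fewer cells of a type and less RNA per cell cannot be told apart.

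The cytoplasmic ribosome consists of a small subunit, which reads the messenger RNA, and a large subunit, which joins amino acids. Each subunit is built in the nucleolus from ribosomal RNA and proteins, most of which are present once in each ribosome while the acidic stalk proteins are present as dimers, and messenger RNAs for these proteins are among the most abundant in growing tumor cells. Many of these messages begin with a terminal oligopyrimidine tract, a run of C and T bases at the very start through which mTORC1 signaling and the protein LARP1 control their translation, and Myc is known to raise their transcription. Lymphocytes that are activated and tumor cells that grow fast are both known for high ribosome production.

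The start of the transcript is shown for 6 members described in the comparisons, because the tract at this position is known for many of these genes. The windows were picked to show starts with and without it, so they do not stand for its frequency. Each window has 30 bases from 15 before to 15 from the annotated start in RefSeq on build GRCm38.p6, read on the gene's own strand. Capitals mark a run of at least 5 C or T bases that begins with C within 5 bases of the start, the capitals ending with the run.
Rps27: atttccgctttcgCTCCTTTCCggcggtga
Rps6: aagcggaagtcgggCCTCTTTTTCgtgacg
Rpl39: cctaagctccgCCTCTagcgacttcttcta
Rps27l: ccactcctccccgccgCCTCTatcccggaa
Rps7: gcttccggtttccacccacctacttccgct
Rplp0: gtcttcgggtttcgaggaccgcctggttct

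The windows lie at chr3:90213634-90213663 for Rps27, chr4:86857353-86857382 for Rps6, chrX:37085208-37085237 for Rpl39 and chr12:28635939-28635968 for Rps7, all on the minus strand. Those of Rps27l at chr9:66946071-66946100 and Rplp0 at chr5:115559452-115559481 are on the plus strand. Each window joins the end of the promoter to the start of the first exon. The start table held 65 members by symbol, and 30 of them (46.2%) had such a run at 1 start or more, beside 5718 of all 27025 genes (21.2%). The run was found in 17 of 69 mitochondrial ribosomal protein genes (24.6%), which serve the separate ribosome of the mitochondrion. The search was on the gene's strand alone, and a window without a match, as in Rps7 and Rplp0, says only that the letters are not at the annotated start.

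Ribosomal protein genes have many processed pseudogenes, and the values depend on how reads were divided among them. Besides the members, 163 pseudogene rows named for a member and 521 pseudogene rows matched to a member by sequence (at least 90% identity over at least 50% of the pseudogene's transcript) also held counts. Rows neither annotated nor named as pseudogenes were not searched, so copies among them are not in the sums. The matched rows took 23.7% of the counts held jointly with the members. For 16 members they took over 50% of the joint count, led by Rpl19 with 96.6%, Rps12 with 94.2%, Rpl12 with 92.8% and Rpl5 with 92.7%. The values are given to at most 1 decimal, and whole means exactly whole at that decimal. In 70 members the value was not a whole number in 1 tumor or more, the mark of reads split between rows. In 15 members it was whole in every tumor, which does not show that no read was split.

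**Figure D1:**
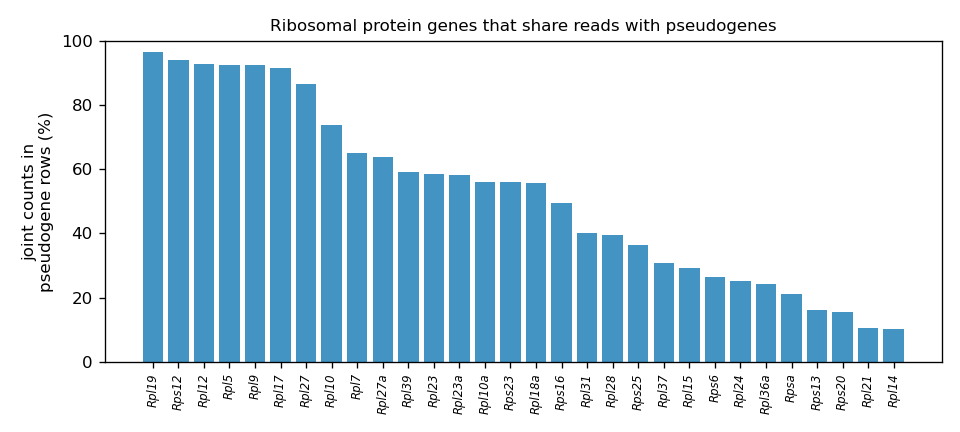
Share of each member's joint count, in percent, that lies in pseudogene rows matched to it by sequence, for the 30 members above 10%. Rpl19 is the highest with 96.6% and 16 bars stand above 50%.

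Total counts ran from 7155486 to 24101674 per tumor with a median of 20215383. The lowest total belonged to aPD1 + aGMCSF + aIL2RB replicate 4 and the second lowest, 15109227, to aPD1 replicate 5. The 5 genes Gm42418, AY036118, CT010467.1, mt-Rnr1 and mt-Rnr2, which encode or overlap ribosomal RNA and are called rRNA genes here, took 1.72% of counts in isotype control replicate 4 and 17.9% in aPD1 replicate 5. The tumors were also divided into set 1, the first 22 tumors in the order of the deposited sample list, and set 2, the last 20. No label or other source names this division, which was made after an earlier look at these data. Set 1 holds isotype control 1 and 2, aPD1 1 to 3, aPD1 + aGMCSF 1 to 5 and replicates 1 to 6 of both groups with aIL2RB. The epithelial markers Krt8, Krt18, Epcam and Cdh1 of the carcinoma label together reached 0.263 to 22.7 CPM, and no tumor group had any of them at 0 in all its tumors. Levels in CPM are counts scaled to the size of the library after TMM normalization.

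Ribosomal protein genes held 3.01% to 4.66% of all counts. The mean was 4.07% ± 0.413 (SD, n = 5) in isotype control, 3.35% ± 0.374 (n = 6) in aPD1, 3.76% ± 0.36 (n = 9) in aPD1 + aGMCSF, 3.89% ± 0.285 (n = 11) in aPD1 + aIL2RB and 3.59% ± 0.25 (n = 11) in aPD1 + aGMCSF + aIL2RB tumors. Isotype control replicate 4 had the highest share and aPD1 replicate 5 the lowest. The group ranges overlap in every pair.

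Per kilobase of the annotated principal transcript, with pseudogene rows summed in, the highest levels belonged to Rps2 at 1581 ± 232 CPM per kilobase (SD over 42 tumors), Rpl19 at 1563 ± 141 and Rps12 at 1411 ± 169. Rps2 and Rps12 are small subunit proteins and Rpl19 is a large subunit protein. Rplp0, the stalk base, followed at 1387 ± 142. Rps2 and Rpl19 differ by less than the spread of either over tumors, as do Rps12 and Rplp0, while the step from Rpl19 to Rps12 is larger than the SD of Rpl19 and smaller than that of Rps12. Without the pseudogene rows Rps2 led at 1569, Rplp0 followed at 1384 and Rps18 at 1353, while Rpl19 dropped to 53.1, so the order depends on how reads were assigned. Rpl39l was the lowest at 0.336 ± 0.264 CPM per kilobase, followed by Rpl35 at 16 ± 2.34 and Rps19bp1 at 20.3 ± 3.4, all with pseudogene rows summed in. Rpl3l, the muscle form of Rpl3, had 0 to 34 counts per tumor, was at 0 in 16 of 42 tumors and was the only member in the table left untested. The testis-type relative Rpl10l was not among the rows analysed here, and Rps4l is annotated as a pseudogene and so falls outside the rule.

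To compare whole tumors, the log2 CPM of each member was standardized over the 42 tumors and averaged over the 84 genes, which gives a score in SD units. It was 0.72 ± 0.76 (SD, n = 5) in isotype control, -0.59 ± 0.8 (n = 6) in aPD1, 0.04 ± 0.75 (n = 9) in aPD1 + aGMCSF, 0.39 ± 0.73 (n = 11) in aPD1 + aIL2RB and -0.43 ± 0.59 (n = 11) in aPD1 + aGMCSF + aIL2RB tumors. Large and small subunit genes gave the same order, at -0.53 and -0.65 in aPD1 and 0.71 and 0.73 in isotype control tumors. In aPD1 tumors 5 of 6 scores lay between -1.38 and -0.35, and replicate 3 stood at 0.85. In isotype control tumors scores ran from -0.11 to 1.73, with replicate 4 the highest.

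**Figure D2:**
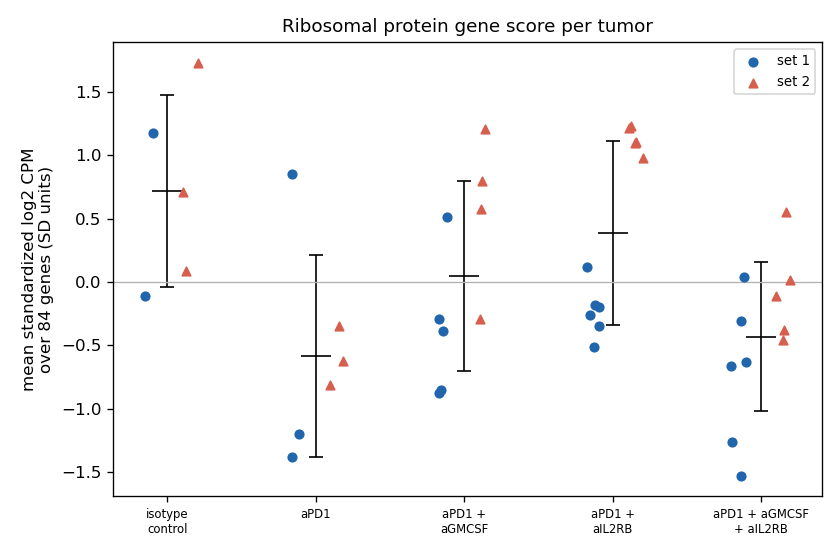
Score of 84 ribosomal protein genes, in SD units, for each tumor by treatment group, with circles for set 1, triangles for set 2 and bars for the mean ± SD of the group. In aPD1 + aIL2RB the 6 set 1 tumors lie from -0.51 to 0.12 and the 5 set 2 tumors from 0.98 to 1.23.

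The first comparison asks what a single dose of aPD1 did without a blocking antibody. Ribosomal protein genes were lower in aPD1 than in isotype control tumors: 23 of 84 fell past the threshold of an edgeR adjusted p of 0.05 and 0 rose (0 at an unadjusted p under 0.05 and 0 by DESeq2), while 2.54% of all 16932 genes tested fell and 6.17% rose. The count was 1 when only these groups were fitted and 56 with library size in place of TMM. The 23 were 10 large subunit, 11 small subunit and 2 stalk genes. Log2 fold changes of the 84 members had a median of -0.19, beside -0.00 over all genes, and 81 of them were negative. The changes were small, and no member's groups were free of overlap, beside 1.13% of all genes lower without overlap.

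Rps27, a small subunit protein, had 299, 328, 329, 355 and 290 CPM in isotype control replicates 1 to 5. In aPD1 tumors it ran from 252 to 315 with a median of 265. Only aPD1 replicate 3, at 315, reached into the isotype control range, and the log2 fold change was -0.24 ± 0.06 (SE, edgeR adjusted p = 0.00916). Rpl22, an RNA-binding protein of the large subunit known for its role in lymphocyte development, had 321, 373, 325, 365 and 312 CPM in isotype control tumors and 253 to 329 with a median of 286 in aPD1 tumors. It changed by -0.25 ± 0.06 (edgeR adjusted p = 0.00981), and replicate 3 was again the highest of the aPD1 tumors. By size of change the list was led by Rpl5 at -0.30 ± 0.08, Rpl21 at -0.27 ± 0.07 and Rps7 at -0.27 ± 0.08 (edgeR adjusted p = 0.0224, 0.0103 and 0.0244). Rpl5 and Rpl11 bind the smallest RNA of the large subunit before assembly and can restrain Mdm2, the negative regulator of p53. Rpl11 changed by -0.14 ± 0.06 and did not pass the test (edgeR adjusted p = 0.119). With pseudogene rows summed in, Rpl5 changed by -0.24, Rpl21 by -0.22 and Rps7 by -0.24.

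In the stalk, which recruits elongation factors, Rplp0 fell from 2031 ± 168 to 1706 ± 163 CPM (SD; log2 fold change -0.25 ± 0.08, edgeR adjusted p = 0.0362). Its acidic partner Rplp1 fell by 0.25 ± 0.08 on the log2 scale (edgeR adjusted p = 0.044), while Rplp2 stood at -0.18 ± 0.10 (edgeR adjusted p = 0.251). Rps6, the substrate of S6 kinases, fell by 0.23 ± 0.07, Rpsa, a small subunit protein also known as the laminin receptor, by 0.24 ± 0.07, Rps4x by 0.23 ± 0.07 and Rpl3 by 0.21 ± 0.06 (edgeR adjusted p = 0.0355, 0.0212, 0.0267 and 0.0149). Rps3, Rps19, the Diamond-Blackfan anemia gene, Rpl13a and the ubiquitin fusion Rps27a lay between -0.20 and -0.13 without passing the test. The near names Rpl7l1 at 0.03 ± 0.07 and Rpl36al, a copy-like relative of Rpl36a, at 0.01 ± 0.08 were among the 3 genes that were not negative. The last of these, Rps27rt at 0.09, was named after its value was seen.

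The genes that passed in every fit with 1 tumor left out were 4, Rpl21, Rpl22, Rps27 and Rps3a1, the last named after its values were seen. The count of genes that fell was 4 without isotype control replicate 4 and 48 without aPD1 replicate 3, and 9 without isotype control replicate 2, 15 without isotype control replicate 3, and 7, 15, 10 and 14 without aPD1 replicates 1, 2, 4 and 6. The rRNA gene share was 5.6% ± 2.74 in isotype control and 9.92% ± 4.7 in aPD1 tumors, and with that share as a term, a fit chosen after the data were seen, 2 members fell and the median was -0.16. Of 14 members whole in every tumor and tested, 13 were negative with a median of -0.16 and 1 passed.

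**Figure D3:**
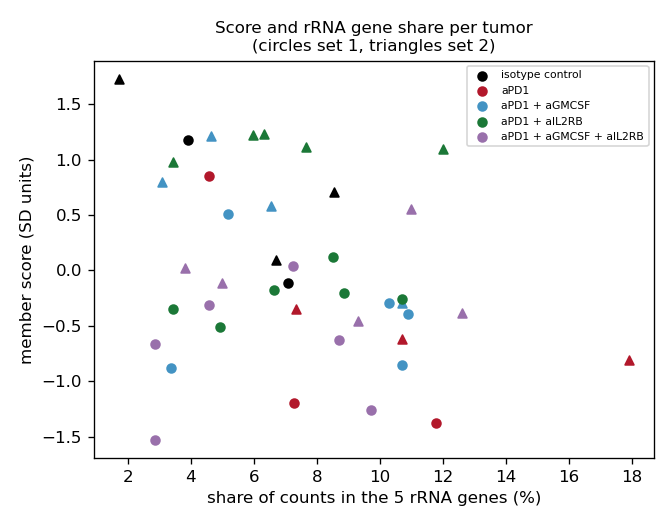
Score of the ribosomal protein genes, in SD units, against the share of counts in 5 rRNA genes, in percent, for each of 42 tumors colored by group, with circles for set 1 and triangles for set 2. Isotype control replicate 4 has the highest score, 1.73, and the lowest rRNA gene share, 1.72%, while aPD1 replicate 5 has the highest share, 17.9%, with a score of -0.81.

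The second comparison asks what blocking IL2RB added to aPD1. Here 39 of 84 members rose and 1, Rpl7l1, fell, while 13% of all genes tested rose and 14.5% fell. The count of genes higher was 21 when only these groups were fitted, 23 with the lower filter of at least 5 counts in total and 0 in set 1 alone. The 39 were 16 large subunit, 21 small subunit and 2 stalk genes. The median log2 fold change was 0.15, beside 0.00 over all genes, and 77 of 84 members were positive. This comparison shares its aPD1 tumors with the comparison against isotype control, so the changes of both are set side by side and their likeness is not a second finding.

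Rps27 ran from 286 to 339 CPM with a median of 325 in aPD1 + aIL2RB tumors, against a median of 265 in aPD1 tumors. Its log2 fold change was 0.23 ± 0.05 (edgeR adjusted p = 0.000456), beside -0.24 for aPD1 against isotype control. Rpl22 ran from 309 to 366 CPM with a median of 330 and changed by 0.24 ± 0.05 (edgeR adjusted p = 0.000441). For both genes 1 aPD1 tumor, replicate 3, lay within the range of aPD1 + aIL2RB tumors and the other 5 lay below it. In the stalk Rplp1 rose by 0.28 ± 0.07 and Rplp0 by 0.21 ± 0.07 (edgeR adjusted p = 0.00199 and 0.0171), and Rplp2 had 0.14 ± 0.08 (edgeR adjusted p = 0.229).

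Rps12, a small subunit protein, had the largest change, 0.99 ± 0.35 (edgeR adjusted p = 0.0306), and is a case where read division matters. It had 19.1 to 42.7 CPM with a median of 27 in aPD1 tumors and 25.1 to 126 with a median of 46.5 in aPD1 + aIL2RB tumors. Replicates 3 and 9 stood at 126 and 119 CPM and the groups overlapped. With pseudogene rows summed in, which hold 94.2% of the joint count, the same comparison gave 0.35. Rpl21 changed by 0.26 ± 0.06 as its own row and by 0.19 with copies summed (edgeR adjusted p = 0.000693 for its own row).

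Rpsa, Rps3, Rps19, Rps4x, Rpl3, Rpl10, Rpl13a, Rpl36a and the paralog Rpl22l1 also rose, by 0.13 to 0.22 on the log2 scale. Rps6 at 0.14 ± 0.06, Rps27a at 0.15 ± 0.06 and the pair Rpl5 at 0.17 ± 0.07 and Rpl11 at 0.07 ± 0.05 did not pass (edgeR adjusted p = 0.083, 0.0588, 0.0667 and 0.306). Rpl7l1, a nucleolar relative of Rpl7, fell from 58.4 ± 2.62 to 52.1 ± 3.6 CPM (SD; log2 fold change -0.17 ± 0.06, edgeR adjusted p = 0.0267), while Rpl7 itself stood at 0.12 ± 0.06 (edgeR adjusted p = 0.14). Rps27l, a p53-regulated copy of Rps27, stood at -0.05 ± 0.08 (edgeR adjusted p = 0.72).

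Leaving out 1 tumor at a time gave 18 to 51 genes higher, and 17 of the 39 passed in every such fit. The fewest were 18 without aPD1 replicate 1, 22 without aPD1 replicate 2 and 21 without aPD1 + aIL2RB replicate 10, and the most, 51, came without aPD1 replicate 3. With the rRNA gene share as a term, 28 rose. Of 14 tested members whole in every tumor, 11 were positive and 6 rose.

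**Figure D4:**
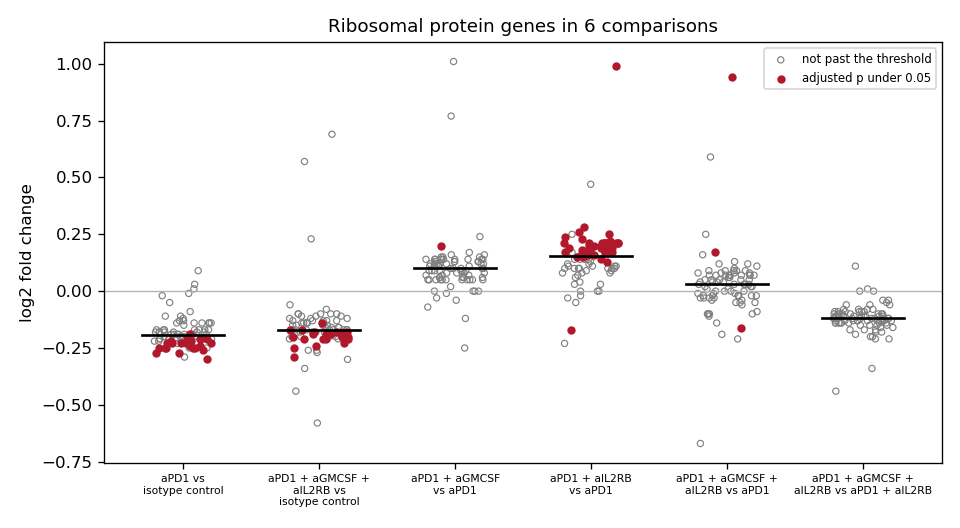
Log2 fold change of each of the 84 members in 6 comparisons, with filled points past the threshold of an adjusted p of 0.05 and the median as a line. Medians are -0.19 for aPD1 against isotype control, -0.17 for aPD1 + aGMCSF + aIL2RB against isotype control and 0.15 for aPD1 + aIL2RB against aPD1, and Rps12 is the highest filled point in the last of these.

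The third comparison sets all 3 antibodies against isotype control. All comparisons against isotype control share the same isotype control tumors, so a likeness between them is not a second finding. There 22 of 84 members fell and 0 rose (0 at an unadjusted p under 0.05 and 0 by DESeq2), with a median log2 fold change of -0.17 beside 0.02 over all genes, and 4.51% of all genes tested fell and 5.69% rose. The count lower was 7 with library size only, 11 with the rRNA gene share as a term, 35 by DESeq2, 0 in set 1 alone and 4 in set 2 alone. The 22 were 13 large subunit and 9 small subunit genes and no stalk gene. Rpl39, a small protein of the peptide exit tunnel, had 63.8, 71.4, 66, 74.7 and 62.1 CPM in isotype control tumors and 50.2 to 60.7 with a median of 55.1 in tumors given all 3 antibodies. The groups did not overlap, and the change was -0.29 ± 0.08 (edgeR adjusted p = 0.0137), or -0.21 with pseudogene rows summed in. Rpl6, a large subunit protein, had 896, 965, 918, 1030 and 905 CPM against 769 to 893, again without overlap, and changed by -0.18 ± 0.05 (edgeR adjusted p = 0.0255). The lowest isotype control and the highest treated tumor were 896 and 893 CPM of Rpl6, which is a narrow gap. These were the 2 members lower without overlap, beside 0.797% of all genes, and 2 genes are too few to read against that share.

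Rps27l fell by 0.25 ± 0.08 and Rpl23a, which lies near the tunnel exit, by 0.24 ± 0.07 (edgeR adjusted p = 0.0414 and 0.021), and with pseudogene rows summed in they stood at -0.25 and -0.15. Rps6 fell by 0.19 ± 0.06, Rps27a by 0.19 ± 0.06 and Rpl11 by 0.17 ± 0.05 (edgeR adjusted p = 0.0422, 0.0374 and 0.031), whereas Rpl5 at -0.18 ± 0.08 and Rplp0 at -0.16 ± 0.07 did not pass (edgeR adjusted p = 0.11 and 0.131). Without isotype control replicate 2 the count was 0, as it was without isotype control replicate 4, and no called member passed in every fit that left out 1 tumor. The count was 35 and 12 without isotype control replicates 1 and 3, and 12, 13, 11, 13 and 37 without replicates 1, 5, 6, 8 and 10 of the group given all 3 antibodies. With the rRNA gene share as a term 11 fell.

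Against aPD1 alone, tumors given all 3 antibodies had 2 members higher, Rps12 and Rpl21, and 1 lower, Rpl7l1, at shares of all genes of 13.1% higher and 14.3% lower. The median over members was 0.03. Rpl7l1 fell by 0.16 ± 0.06 and Rps12 changed by 0.94 ± 0.35 (edgeR adjusted p = 0.0326 and 0.0407), the latter by 0.19 with pseudogene rows summed in. Rpl21 changed by 0.17 ± 0.06 (edgeR adjusted p = 0.0221). With pseudogene rows summed in, its change was 0.10 and its call did not hold (edgeR adjusted p = 0.181). Neither Rps12, Rpl21 nor Rpl7l1 passed in every fit with 1 tumor left out. For aPD1 + aGMCSF against aPD1 only Rps7 passed, higher by 0.20 ± 0.07 (edgeR adjusted p = 0.0381), beside 4.77% of all genes higher and 8.75% lower, and 77 of 84 members were positive with a median of 0.10. The call on Rps7 did not hold with pseudogene rows summed in, where the change was 0.15, and was lost in 9 of 15 fits that left out 1 tumor. Without aPD1 replicate 3, 16 members were higher.

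For aPD1 + aGMCSF against isotype control 0 members and 0% of all genes passed in either direction, with 0 members by DESeq2 and a median of -0.10. At an unadjusted p under 0.05, 13 of 84 members were lower, beside 370 of all 16932 genes. For aPD1 + aIL2RB against isotype control 0 members passed, beside 1.7% of all genes higher and 1.51% lower, with 0 members by DESeq2 and a median of -0.05. There 2 of 84 members were lower at an unadjusted p under 0.05, beside 1399 of all 16932 genes.

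The groups given blocking antibodies were also compared with each other. For aPD1 + aIL2RB against aPD1 + aGMCSF 0 members passed beside 0.626% of all genes higher and 0.898% lower, and 0 by DESeq2 in either direction. At an unadjusted p under 0.05, 6 of 84 members were higher and 0 lower, beside 1174 and 1114 of all 16932 genes. For all 3 antibodies against aPD1 + aGMCSF 0 passed beside 0.98% higher and 1.15% lower, and 0 by DESeq2. There 8 of 84 members were lower at an unadjusted p under 0.05, beside 1387 of all 16932 genes. Adding aGMCSF to aPD1 + aIL2RB gave 0 passing members beside 0.00591% of all genes higher and 0% lower. In that comparison 81 of 84 members were negative with a median of -0.12 beside 0.00 over all genes, and 63 were lower at an unadjusted p under 0.05, beside 631 of all 16932 genes, and 0 by DESeq2 after adjustment. Members were correlated with each other over tumors, so these counts are not separate pieces of evidence.

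**Figure D5:**
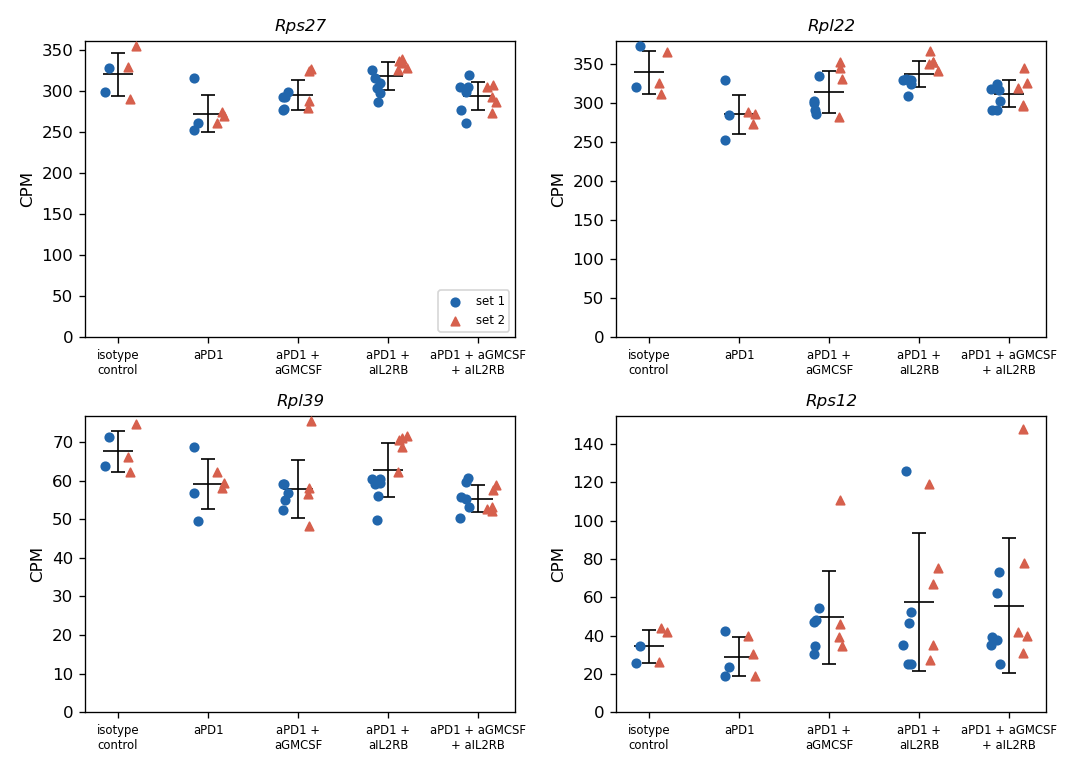
CPM of Rps27, Rpl22, Rpl39 and Rps12 for each tumor by treatment group, on linear axes that start at 0, with circles for set 1, triangles for set 2 and bars for the mean ± SD. Rps27 and Rpl22 are lowest in aPD1 tumors, Rpl39 in tumors given all 3 antibodies lies below isotype control, and Rps12 reaches 148 CPM in 1 tumor given all 3 antibodies.

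Between the sets the members differed in all groups together. The division into sets was made after an earlier look at these data, so the counts describe it and are not an independent test. With treatment in the model, 62 of 84 members were higher in set 2 than in set 1 and 0 lower, beside 13.6% of all genes higher and 11.5% lower, with medians of 0.11 and -0.01 on the log2 scale. In aPD1 + aIL2RB tumors the score was -0.23 ± 0.21 (SD, n = 6) in set 1 and 1.13 ± 0.1 (n = 5) in set 2, without overlap. In aPD1 tumors it was -0.58 ± 1.24 (n = 3) and -0.6 ± 0.24 (n = 3). Markers moved along with the set as well: all 8 T cell markers and 3 of 5 fibroblast markers were lower in set 2, all 4 adipocyte, 3 erythroid and 3 of 4 epithelial markers were higher, and their part in the difference was not tested.

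Within set 1, 0 of 84 members fell in aPD1 against isotype control, beside 0.00575% of all genes, with 22 lower at an unadjusted p under 0.05 and a median of -0.16. Within set 2, 25 fell, beside 3.69%, with a median of -0.20. There the share of counts from mRNAs of the mitochondrial genome was 2.41% ± 0.0416 (SD, n = 3) in aPD1 tumors and 3.08% ± 0.0831 (n = 3) in isotype control tumors, with no overlap. In set 1 it was 3.15% ± 0.393 (n = 3) and 3.1% ± 0.0671 (n = 2), with overlap, and its part in the result was not tested. For aPD1 + aIL2RB against aPD1, 0 rose in set 1 (3 at an unadjusted p under 0.05) beside 6.75% of all genes and 52 rose in set 2 beside 8.74%, with medians of 0.06 and 0.24. For all 3 antibodies against isotype control 0 fell in set 1 (41 at an unadjusted p under 0.05) beside 1% of all genes and 4 in set 2 beside 6.52%, with medians of -0.19 and -0.14. For all 3 antibodies against aPD1 + aIL2RB 14 fell in set 2 beside 1.51%. The change of effect between the sets was tested gene by gene in all 10 comparisons, and it passed once, for Rpl27 in all 3 antibodies against aPD1, so the counts by set are not shown to differ for the other members.

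Members moved together. After group means were removed, 96.8% of the 3486 pairs of members had a positive Pearson correlation over the 42 tumors, with a median r of 0.73, and 0.66 after means of group and set were removed. The mean over pairs was 0.63 for members and 0.00 over all genes. These points share libraries, scaling and, for some members, reads. The mean of the other members was followed least by Rpl39l, with r = -0.25, Rpl10, with 0.07, and Rps12, with 0.20, the first near 0 CPM and the others with most of their joint count in pseudogene rows.

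Outside the members, the 10 rows whose log2 CPM was most like the score over 42 tumors were Rpl9-ps6, Gm10076, Gm11808, Gm2000, Eef1b2, Rack1, Gm15500, Eef1g, Gm7536 and Rpl19-ps11, with r from 0.93 to 0.96. Of these, 4 are pseudogene rows matched to members. Gm10076, annotated as a lincRNA, and Gm11808 and Gm2000, annotated as protein-coding, were not among the rows searched for copies of members. Eef1b2 and Eef1g are subunits of the elongation factor that reloads Eef1a1, and Rack1 sits on the small subunit. With pseudogenes left out, Pebp1, Gstp1, Cdk4 and Banf1 came next, with r from 0.86 to 0.90.

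Among all genes tested 2.54% were lower in aPD1 against isotype control, 13% higher in aPD1 + aIL2RB against aPD1 and 4.51% lower with all 3 antibodies against isotype control, and the counts of other genes of translation are read beside these shares. There, 18 elongation, initiation and related genes known for terminal oligopyrimidine tracts had 6 lower in aPD1 against isotype control and 7 higher in aPD1 + aIL2RB against aPD1, with medians of -0.16 and 0.09. Eef1g fell by 0.27 ± 0.07 and Eif3e by 0.24 ± 0.06 in the first (edgeR adjusted p = 0.0146 and 0.00719), and they rose by 0.20 ± 0.06 and 0.21 ± 0.05 in the second (edgeR adjusted p = 0.00847 and 0.000676). Of 7 noncoding hosts of small nucleolar RNAs, which also carry such tracts, 0 passed in the first with a median of -0.25, 5 lower at an unadjusted p under 0.05 and 1 by DESeq2, and 5 rose in the second, led by Snhg12 at 0.46 ± 0.09. With all 3 antibodies against isotype control 7 of the 18 fell, among them Npm1 by 0.24 ± 0.07, a nucleolar chaperone (edgeR adjusted p = 0.0292). Rack1 rose by 0.17 ± 0.06 in the second and Fau fell by 0.32 ± 0.10 in the third (edgeR adjusted p = 0.0153 and 0.036).

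Ribosome biogenesis genes, which act in the nucleolus, numbered 35, and 0 passed in edgeR in the first and second (1 lower and 0 at an unadjusted p under 0.05, 0 by DESeq2) while 2, Rrp1 and Gnl3, fell in the third. Their medians were -0.08, -0.05 and -0.13. Of 78 mitochondrial ribosomal protein genes 2 fell in the first, near the share of all genes, 1 rose in the second, below that share, and 6 fell in the third, with medians of -0.08, -0.01 and -0.13. In set 2 against set 1, 29 of the 35 and 48 of the 78 were higher, beside 13.6% of all genes. Beside the following counts stand 6.17% of all genes higher and 2.54% lower in the first, and 13% higher and 14.5% lower in the second. Of 22 mTORC1 and S6 kinase genes 2 rose and 2 fell in the first and 3 rose and 3 fell in the second, a share near that of all genes in the second. Ddit4, an inhibitor of mTORC1, had the largest changes among the called genes of this list, -0.75 ± 0.17 and 0.95 ± 0.15. Of 10 Myc network genes Mxd1, a Myc antagonist, rose by 1.03 ± 0.28 in the first and fell by 0.81 ± 0.23 in the second, and Mxd4 rose in the second. Of 10 p53 target genes 1 rose in the first, and 2 rose and 2 fell in the second, counts too small to read against these shares. Of 6 cell cycle genes 0 passed in either, with 1 lower at an unadjusted p under 0.05 in each and 0 by DESeq2.

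Markers of other cell types changed in the same comparisons, and their part in the result was not tested. Interferon genes and macrophage markers moved opposite to the members in the first and second. Of 15 interferon genes 12 rose in aPD1 against isotype control and 13 fell in aPD1 + aIL2RB against aPD1. All 8 macrophage markers rose in the first, with summed levels of 1482 to 1727 CPM in isotype control and 1797 to 3220 in aPD1 tumors, and 7 of 8 fell in the second, with 1252 to 1592 CPM in aPD1 + aIL2RB tumors. Of 8 T cell markers 0 passed in the first, also at an unadjusted p under 0.05 and by DESeq2, and 7 fell in the second. Their summed levels were 33 to 61.2 CPM in isotype control, 71.6 to 139 in aPD1 and 3.23 to 33.1 in aPD1 + aIL2RB tumors. The summed levels of isotype control and aPD1 tumors did not overlap, so the lack of calls in the first does not show unchanged levels. Of 4 natural killer cell markers 0 passed in the first and 3 fell in the second, and in aPD1 + aIL2RB tumors 1 of the 4 was at 0 throughout. In the first, 1 of 4 B cell, 1 of 4 neutrophil, 2 of 4 endothelial and 5 of 5 muscle markers rose, 1 of 5 fibroblast markers rose and 1 fell, and of 4 adipocyte, 3 erythroid and 4 epithelial markers 0 passed, also at an unadjusted p under 0.05 and by DESeq2. In the second, 2 of 4 B cell, 1 of 4 neutrophil, 5 of 5 muscle and 1 of 4 epithelial markers fell, 1 of 4 endothelial markers rose, 3 of 5 fibroblast markers rose and 2 fell, and 0 adipocyte and erythroid markers passed (3 adipocyte markers lower at an unadjusted p under 0.05, 0 of either by DESeq2). Muscle markers summed to 0.234 to 24.3 CPM in isotype control, 0.602 to 653 in aPD1 and 2.69 to 89.7 in aPD1 + aIL2RB tumors. In the third, 7 of 15 interferon genes, 3 of 5 fibroblast, 2 of 4 endothelial and 1 of 5 muscle markers rose, and 4 of 8 T cell, 3 of 4 natural killer cell and 1 of 4 epithelial markers fell.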

How the data were processed

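RNA of 42 tumors was sequenced as poly(A) libraries (KAPA mRNA HyperPrep, paired-end). The authors aligned reads with bowtie 1.2.3 to transcriptomes of the Collaborative Cross founder strains made with g2gtools 0.2.9 from the GENCODE vM23 annotation, and deposited expected counts per gene from gbrs 0.1.6, which divides reads shared between transcripts and is not normalized. Symbols came from GENCODE vM21 on the same build, GRCm38, for 26629 of 26811 rows. After rounding to whole numbers, genes were filtered (filterByExpr, count of 10 and total of 15), scaled by TMM and tested by edgeR's quasi-likelihood F test, version 4.0.16 under R 4.3.3, all 42 tumors entering 1 fit. Each of 10 pairs of groups had its own Benjamini-Hochberg adjustment over 16932 genes, with a threshold of 0.05, and standard errors follow from the F statistic. Scores used log2 CPM with a prior count of 2. DESeq2 1.42.0, other scalings and filters, only the groups compared, the replicate number as a block, the set as a term, each set alone, summed pseudogene rows and each tumor left out served as alternatives. The code was tested on simulated data. No pair of tumors of a group had counts as close as repeated draws (lowest chi-square per degree of freedom 5.44). No tumor was left out. Named in each comparison were up to 3 called members with the largest change in each direction at a mean log2 CPM of at least 1, together with a set list of stalk, regulatory and paralogous genes, the members highest and lowest in level, and the 10 genes most like the score. Genes and lists were chosen with earlier results of these data known. Total counts limit precision, and the tumor with 7155486 counts is the least precise. One gene outside the members is not reported here.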

Additional observations from a re-analysis of the deposited data

Results flagged for a closer look

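One tumor, aPD1 replicate 3, stood apart from the other 5 of its group in 6 members, by a gap that was large against the range of the group. It had 1343 CPM of Rpsa where the others had 993 to 1091, 84.3 of Rps27l against 54.8 to 62.6, 846 of Rpl21 against 681 to 742, 490 of Rpl7 against 375 to 411, 734 of Rps7 against 504 to 590 and 315 of Rps27 against 252 to 274. In aPD1 + aGMCSF, replicate 8 had 111 CPM of Rps12 where the others had 30.2 to 54.5, and replicate 7 had 75.3 CPM of Rpl39 where the others had 48.2 to 59. Chance alone gives such a gap in about 1 of 20 groups, and 93 groups were looked at. Members were correlated over tumors and 1 tumor gave 6 of these flags, so the rate cannot be read against their number.

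The effect of adding both blocking antibodies to aPD1 differed between the sets for Rpl27, a large subunit protein, by 0.54 ± 0.16 on the log2 scale (edgeR interaction term, adjusted p = 0.0297). Within the sets it was -0.26 in set 1 and 0.27 in set 2. Pseudogene rows hold 86.7% of the joint count of Rpl27.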

How the results depend on the processing

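Among the 37 called results that the naming rule gave (Rps3a1 and Rpl6, named for other reasons, were not among them), no alternative turned the direction, and 258 of 999 alternative fits no longer passed. The group means of the score moved by less than the spread between tumors in each alternative run on all tumors. Within the sets they moved more for aPD1 + aIL2RB, from 0.39 ± 0.73 (SD, n = 11) over all its tumors to -0.23 ± 0.21 (n = 6) in set 1 and 1.13 ± 0.1 (n = 5) in set 2. Counts of members past the threshold moved more, and the cause was not tested.

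For aPD1 against isotype control (23) it was 56 with library size only, 1 with only the groups compared, 44 with the replicate number as a block, 0 in set 1, 2 with the rRNA gene share as a term and 4 to 48 with single tumors left out. For aPD1 + aIL2RB against aPD1 (40) it was 24 with a total of at least 5 counts as the filter, 22 with only the groups compared, 13 with the block, 2 in set 1 and 18 to 51 with single tumors left out. For all 3 antibodies against isotype control (22) it was 7 with library size only, 35 by DESeq2, 76 with the block, 0 in set 1, 4 in set 2, 11 with the rRNA gene share as a term and 0 to 37 with single tumors left out.

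For aPD1 + aGMCSF against aPD1 (1) it was 10 with library size only, 0 with the lower filter, 3 by DESeq2, 10 with the set as a term, 0 in set 1, 17 in set 2, 2 with named pseudogenes summed, 0 with the rRNA gene share as a term and 0 to 16 with single tumors left out. For all 3 antibodies against aPD1 (3) it was 7 with library size only, 1 with the lower filter, 7 with the block, 1 in set 1 and 1 to 6 with single tumors left out. Where 0 members passed, the block gave 14 for aPD1 + aIL2RB against isotype control and 4 for all 3 antibodies against aPD1 + aGMCSF, and set 2 alone gave 14 for all 3 antibodies against aPD1 + aIL2RB. Leaving out single tumors gave 0 in each of the 5 comparisons without a call.

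Replicate numbers are shared between groups. Deviations of same-numbered tumors from their group means correlated by a median of 0.03 over 67 pairs (from -0.17 to 0.19, 15 of them over 0.1). The numbers thus showed no general pairing of tumors. Some same-numbered tumors lie in different sets, so the correlations cannot exclude a pairing of part of them. With the block, Rps7 no longer passed for aPD1 + aGMCSF against aPD1 (edgeR adjusted p = 0.0663) and Rpl7l1 passed as lower (edgeR adjusted p = 0.00965), so the count of 1 held another gene. The fits with summed pseudogenes matched by sequence and with the rRNA gene share were added after the data were seen.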
